A study of Mus musculus with 2 samples.

Results

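A set of 10 genes of DNA methylation and Polycomb repression was followed through a single-cell RNA data set of mouse hematopoietic stem cells: Dnmt1, Uhrf1, Dnmt3a, Dnmt3b, Tet1, Tet2, Tet3, Ezh1, Ezh2 and Asxl1. They were taken by name, 10 of the 28205 genes in the count files, and all 10 had transcripts in the kept cells, where 22476 genes were detected. The cells were GFP cells of Mds1-GFP/+ Flt3-Cre mice, sorted as DAPI-GFP+ and by no other marker, mixed with long-term hematopoietic stem cells (LT-HSCs) of wild-type mice sorted as DAPI- Lin- cKit+ Sca+ CD48- CD150+, the SLAM gate. Both came from bone marrow depleted of cells with B220, Gr1, Ter119, CD4 or CD8. The reporter lies between loxP sites in Mds1, the upstream part of Mecom, so it is lost where Cre acts, and Cre is under Flt3, a gene of multipotent progenitors. The age, sex and number of the mice are not given in the sources used here.

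The pool was run on the inDrops droplet platform as 2 aliquots, so n = 1, the aliquots are technical, and no difference below has a replicate check or a test. Cells were droplet barcodes with at least 500 unique molecular identifiers (UMIs, each marking a captured transcript) and at most 20% mitochondrial UMIs. This kept 3402 cells with 5668067 UMIs, 1574 cells in aliquot 1 (median 946.5 UMIs) and 1828 in aliquot 2 (median 2071.5). Reporter transcripts marked 71 cells, against 46 GFP cells stated in the labels after the authors' own processing. The 16 LT-HSC markers summed to 3525 CPM (UMIs per 1e6 counted) in reporter cells and 2956 CPM in the other cells, with none of the 16 at 0 in either. The 9 neutrophil markers summed to 29.2 CPM in reporter cells and 1957 CPM in the others. 461 barcode names occurred in both aliquots, and 431 kept cells carried such a name.

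DNA methylation is copied at each division and rewritten between divisions. Dnmt1 restores methyl groups on newly made strands, guided by Uhrf1, which binds DNA methylated on one strand only. Dnmt3a and Dnmt3b place new methyl groups, and the TET enzymes Tet1, Tet2 and Tet3 oxidise methylcytosine on the way to its removal. Ezh2 and Ezh1 are alternative catalytic subunits of Polycomb repressive complex PRC2, which methylates histone H3 on lysine 27, and Asxl1 is the partner of the deubiquitinase Bap1 in the complex PR-DUB, which acts on histone H2A marked by PRC1. DNMT3A, TET2 and ASXL1 are the genes most often mutated in human clonal hematopoiesis, the outgrowth of mutant blood stem cells with age. Mouse stem cells without Dnmt3a or Tet2 expand in transplants.

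Transcripts of Dnmt1, Uhrf1 and Ezh2 followed the load of S phase transcripts in these cells, and the promoter windows of these 3 genes are shown first for that reason. RefSeq gives windows of 250 bases before to 50 bases after each start site, on build GRCm38.p6, and all 10 genes matched. They were searched on both strands for the E2F letters TTTCCCGC, TTTGGCGC, TTTCGCGC and TTTGCCGC, and for the cell cycle homology letters TTTGAA. E2F letters were found in 1 of 3 windows of Dnmt1, in 1 of 2 of Uhrf1 and in the single window of Ezh2, and in no window of the other 7 genes. Of 27025 genes with windows, 2.60% hold such letters. The E2F match is in capitals below, and the Ezh1 window stands beside them as that of the gene that went the other way. The windows are Dnmt1 at chr9:20952574-20952873 on the minus strand, Uhrf1 at chr17:56304063-56304362 on the plus strand, Ezh2 at chr6:47594981-47595280 on the minus strand and Ezh1 at chr11:101226414-101226713 on the minus strand.
Dnmt1: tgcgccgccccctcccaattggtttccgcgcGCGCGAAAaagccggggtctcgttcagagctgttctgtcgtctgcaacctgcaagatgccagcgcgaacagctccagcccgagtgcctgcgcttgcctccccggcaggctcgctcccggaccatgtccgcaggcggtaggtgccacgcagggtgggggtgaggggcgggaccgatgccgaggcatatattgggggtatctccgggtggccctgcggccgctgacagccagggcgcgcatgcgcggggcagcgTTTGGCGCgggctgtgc
Uhrf1: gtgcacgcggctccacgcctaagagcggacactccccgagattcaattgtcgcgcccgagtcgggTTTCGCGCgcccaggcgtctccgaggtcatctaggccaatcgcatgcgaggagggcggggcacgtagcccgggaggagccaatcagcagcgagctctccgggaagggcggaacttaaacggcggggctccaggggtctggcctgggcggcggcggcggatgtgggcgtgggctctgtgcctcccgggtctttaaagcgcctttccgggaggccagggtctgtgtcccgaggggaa
Ezh2: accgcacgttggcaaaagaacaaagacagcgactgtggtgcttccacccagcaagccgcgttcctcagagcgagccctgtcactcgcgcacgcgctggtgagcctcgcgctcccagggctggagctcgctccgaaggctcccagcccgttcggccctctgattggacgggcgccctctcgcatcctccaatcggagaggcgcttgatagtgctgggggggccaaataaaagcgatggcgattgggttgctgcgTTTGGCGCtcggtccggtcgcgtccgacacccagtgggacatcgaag
Ezh1: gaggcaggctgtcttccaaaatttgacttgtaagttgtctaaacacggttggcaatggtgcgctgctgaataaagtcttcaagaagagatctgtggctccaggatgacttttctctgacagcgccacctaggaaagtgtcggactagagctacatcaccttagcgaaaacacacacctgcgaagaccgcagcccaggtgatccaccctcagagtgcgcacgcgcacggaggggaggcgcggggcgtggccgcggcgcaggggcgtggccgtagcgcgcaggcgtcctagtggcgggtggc

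The Dnmt1 window holds 2 matches, 219 bases before the start site, as GCGCGAAA on the strand shown, and at base 34 after it. The Uhrf1 match lies 185 bases before its start site and the Ezh2 match at base 4 after it. TTTGAA or its complement was found in 1 window each of Dnmt1, Dnmt3b and Asxl1, and in 20.2% of genes. The 2 motifs share no base in these windows. These are matches of letters, and no binding was measured.

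On GRCm38 (GENCODE vM21) the genes are protein-coding. Dnmt1 spans chr9:20907209-20959888, Ezh2 chr6:47530139-47595341 and Ezh1 chr11:101191115-101226463, all on the minus strand, and Uhrf1 spans chr17:56303321-56323486 on the plus strand. Dnmt3a lies at chr12:3806007-3914443, Dnmt3b at chr2:153649450-153687730 and Asxl1 at chr2:153345829-153404007, on the plus strand. Tet1 lies at chr10:62804570-62908996, Tet2 at chr3:133463679-133545139 and Tet3 at chr6:83362373-83459084, on the minus strand. Uhrf1 and Ezh1 overlap no other annotated gene. The other 8 do, each with genes that have no row in the files, among them the antisense genes Dnmt3aos and Dnmt3bos.

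Dnmt1 had the highest level of the 10 and Tet2 the lowest. Levels are CPM over all kept cells with exact Poisson 95% intervals, which here and below cover counting error only. They are not divided by transcript length, since a UMI counts a molecule, and capture can differ between genes. Dnmt1 stood at 221 CPM (209 to 233), with 253 in aliquot 1 and 208 in aliquot 2. Ezh2 followed at 106 CPM (97.9 to 115), Uhrf1 at 104 (95.7 to 113) and Dnmt3a at 97.7 (89.8 to 106). Neighbours among these 3 have overlapping intervals, and all 3 lie below Dnmt1. Dnmt3b stood at 61.4 CPM (55.1 to 68.2), Tet1 at 57.9 (51.8 to 64.5) and Asxl1 at 55.6 (49.6 to 62.1), again overlapping. Tet3 stood at 39.0 CPM (34.0 to 44.5), Ezh1 at 34.1 (29.4 to 39.2) and Tet2 at 14.5 (11.5 to 17.96), with Tet2 apart from Ezh1.

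**Figure D1:**
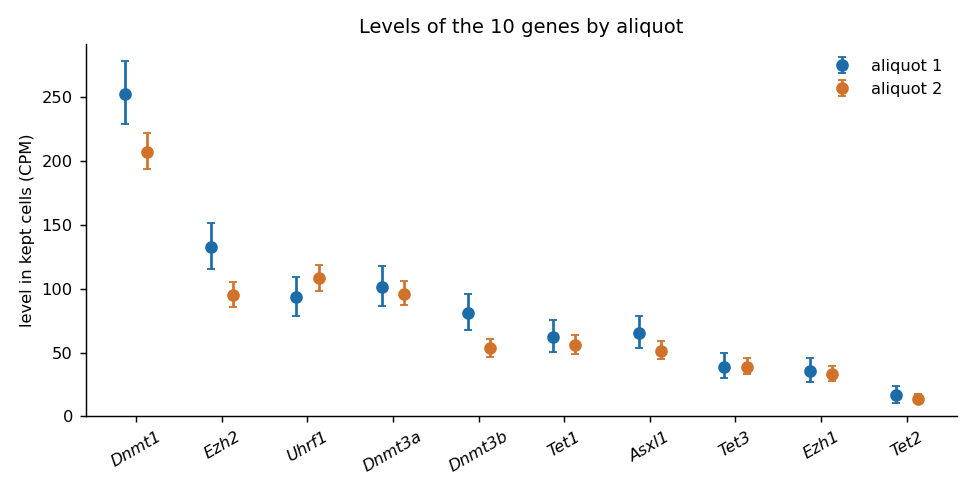
Level of each gene in CPM over the kept cells of aliquot 1 and aliquot 2, with 95% Poisson intervals, ordered by the level in both. Dnmt1 is highest at 253 and 208 CPM and Tet2 lowest at 16.5 and 13.7 CPM, and the intervals of the aliquots are apart for Dnmt1, Ezh2 and Dnmt3b.

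The aliquots of the same pool gave ratios of aliquot 2 over aliquot 1 between 0.659 and 1.16. The interval excluded 1 for Dnmt3b at 0.659 (0.528 to 0.824), Ezh2 at 0.718 (0.606 to 0.851) and Dnmt1 at 0.821 (0.729 to 0.925). Aliquots of 1 pool thus differed by this much. Against the 22476 detected genes, the 10 ran from percentile 62.0 for Tet2 to 97.1 for Dnmt1.

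At this depth each gene was seen in a minority of cells. Dnmt1 had a UMI in 717 cells, 21.1% (19.7 to 22.5%, Clopper-Pearson), Dnmt3a in 12.3%, Ezh2 in 11.4%, Uhrf1 in 9.58% and Tet2 in 67 cells, 1.97%. After thinning each cell at random to 500 UMIs, so that depth is equal, these shares were 7.82%, 4.53%, 4.14%, 3.29% and 0.676%. Uhrf1 UMIs were gathered in fewer cells than Dnmt3a UMIs: 589 Uhrf1 UMIs lay in 326 cells with up to 10 in 1 cell, and 554 Dnmt3a UMIs in 417 cells with up to 5. Without thinning, 1552 cells (45.6%) had no UMI of any of the 10 genes, and 3 cells had UMIs of 6 of them. In the 33 cells with granulocyte markers, a cell type outside the LT-HSC gate, Dnmt1 was at 240.0 CPM (150 to 363) and Dnmt3b, Tet2 and Ezh1 had no UMI. The exact interval of a count of 0 reaches 40.2 CPM in these cells, above the levels of Tet2 and Ezh1 over all kept cells.

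Cells rich in S phase transcripts carried more Uhrf1, Dnmt1 and Ezh2 and less Ezh1. S-high cells had at least 4 UMIs of 45 S phase genes, none of them among the 10, per 500 thinned UMIs (640 cells), and S-low cells had none (1100 cells). Of all 10480 genes with enough counts (10 UMIs seen or expected in whichever set is smaller), 16.7% were past 1.5-fold higher in S-high cells and 18.7% past 1.5-fold lower, 35.4% in all. Of the 10 genes, 3 were higher and 1 lower. The median ratio of the 10 was 0.836, against 0.963 over all genes measured.

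Both genes of methylation copying were higher in S-high cells. Uhrf1 stood at 264 CPM in S-high cells and 10.6 CPM in S-low cells, a ratio of 24.9 (15.3 to 43.3, exact conditional binomial). In aliquot 1 it was at 230 CPM in S-high and 4.85 CPM in S-low cells, and in aliquot 2 at 279.9 and 12.6 CPM. The S-high values lie far above the S-low values in both aliquots, with 17 UMIs in all S-low cells. Dnmt1 stood at 410.2 CPM in S-high cells and 104 CPM in S-low cells, a ratio of 3.94 (3.30 to 4.71). Aliquot 1 gave 488 and 107 CPM and aliquot 2 gave 375 and 103 CPM. Dnmt1 was thus still measured in S-low cells of both aliquots at about the level of Dnmt3a. In all UMIs, S-low cells still held 1110 CPM of the S phase list, against 9890 CPM in S-high cells. Of the S-low cells, 8.0% were high for the G2/M list described below. After thinning, Uhrf1 was seen in 9.06% of S-high cells (6.95 to 11.6%) and in 1 S-low cell, 0.0909% (0.0023 to 0.506%), and Dnmt1 in 16.6% and 3.64%.

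Within PRC2 the catalytic subunits went opposite ways. Ezh2 stood at 217 CPM in S-high cells and 49.9 CPM in S-low cells, a ratio of 4.35 (3.38 to 5.64), with 248.7 and 65.5 CPM in aliquot 1 and 203 and 44.5 CPM in aliquot 2. Ezh1, the subunit known for a place in non-dividing cells, stood at 15.6 CPM in S-high cells and 44.9 CPM in S-low cells, a ratio of 0.346 (0.202 to 0.569). It had 4.78 and 53.4 CPM in aliquot 1, the first from 2 UMIs, and 20.4 and 42.0 CPM in aliquot 2. Ezh1 made up 6.69% of the UMIs of both subunits in S-high cells (4.19 to 10.04%) and 47.4% in S-low cells (39.2 to 55.6%). In the same cells Dnmt3b took 33.9% of the UMIs of both de novo enzymes in S-high cells and 35.2% in S-low cells, with overlapping intervals.

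The other 6 genes lay within 1.5-fold with both aliquots summed. Dnmt3a stood at 94.0 CPM in S-high cells and 109 CPM in S-low cells, a ratio of 0.861 (0.680 to 1.09), and Dnmt3b at 48.1 and 59.3 CPM, 0.812 (0.583 to 1.12). Tet1 gave 0.714 (0.508 to 0.997), Tet2 0.809 (0.390 to 1.63), Tet3 1.04 (0.697 to 1.55) and Asxl1 0.795 (0.562 to 1.12). Of these 6 genes, Tet1 alone had an interval that excludes 1, and it was below 1 in both aliquots. Tet3 was at 1.79 in aliquot 1 and 0.832 in aliquot 2, so aliquot 1 alone puts it past 1.5-fold. Tet1 was at 0.880 and 0.620, Asxl1 at 1.06 and 0.648, and Tet2 at 0.493 and 1.00 in aliquots 1 and 2. Dnmt3b turned to 1.35 with another random thinning. Tet2 rests on 15 UMIs in S-high cells, and its interval leaves room for differences past 1.5-fold in either direction. S-high cells were also deeper, with a median of 1686 UMIs against 1248 in S-low cells. Their LT-HSC markers summed to 1850 CPM in S-high and 3729 CPM in S-low cells, with 0 of 16 higher, and 12 immediate early genes to 1642 and 3703 CPM. Neutrophil markers were at 2317 CPM in S-high and 2299 CPM in S-low cells. Basophil and granulocyte progenitor markers summed to 897 and 303 CPM, with 8 of 8 higher in S-high cells and 1 at 0 in S-low cells, and megakaryocyte markers to 561 and 222 CPM, with 6 of 8 higher. Without the granulocyte-marker cells the ratios were 24.9 for Uhrf1, 3.94 for Dnmt1, 4.50 for Ezh2 and 0.356 for Ezh1. The part of stem cell and megakaryocyte marker level and of depth in these ratios was not tested.

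Along the whole range of the S phase list the levels were graded. In cells with 0, 1, 2 to 3, 4 to 6 and 7 or more S phase UMIs, Uhrf1 stood at 10.6, 40.9, 114, 244 and 309 CPM. Dnmt1 stood at 104, 128, 257, 394 and 445 CPM and Ezh2 at 49.9, 68.6, 98.7, 187 and 281 CPM in the same bands. Each of these 3 genes was higher in every band than in the one before. Ezh1 stood at 44.9, 47.1, 27.5, 13.1 and 20.9 CPM, with its lower levels from 2 UMIs on. Dnmt3a stood between 87.4 and 109 CPM throughout. The cut of 4 divides this gradient, with 332 cells at 1 UMI below it and 203 at it.

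**Figure D2:**
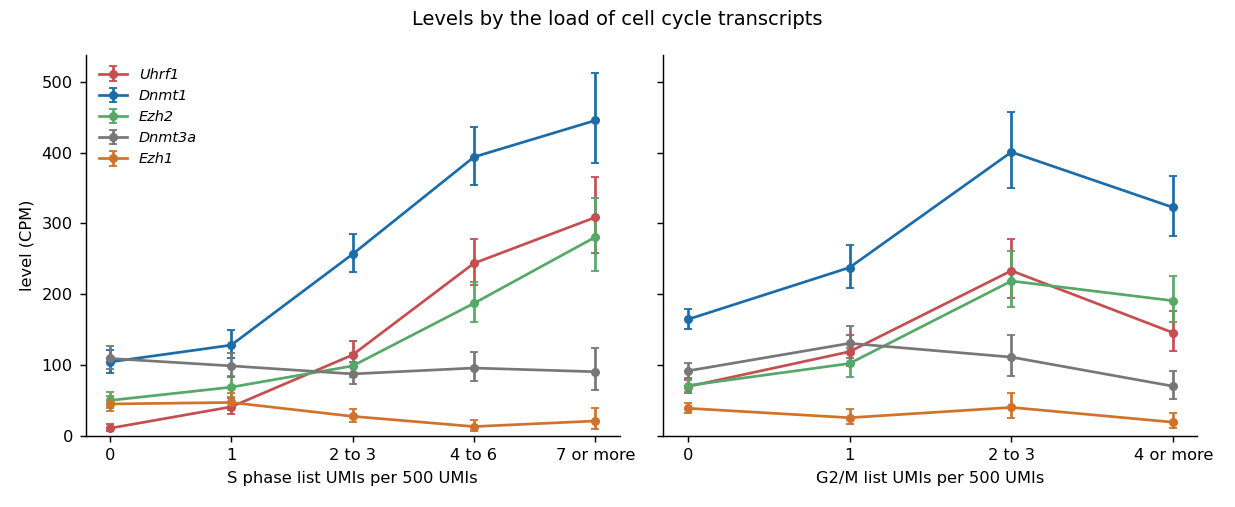
Level in CPM with 95% Poisson intervals in cells grouped by UMIs of the S phase list (left) and of the G2/M list (right) per 500 thinned UMIs. Dnmt1, Uhrf1 and Ezh2 climb with S phase load to 445, 309 and 281 CPM, peak at 2 to 3 G2/M UMIs, and Dnmt3a and Ezh1 show no such climb.

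The same 3 genes were higher in G2/M-high cells. These had at least 2 UMIs of a G2/M list (52 genes, 50 found; 594 cells), and G2/M-low cells had none (2210 cells). Past 1.5-fold were 11.8% of 10445 genes higher and 14.6% lower, 26.4% in all, against 3 of the 10 higher and 1 lower. Ezh2 stood at 203 CPM in G2/M-high cells and 70.9 CPM in G2/M-low cells, 2.86 times (2.39 to 3.42), with 268 and 82.1 CPM in aliquot 1 and 175 and 66.2 CPM in aliquot 2. Uhrf1 stood at 183 and 69.4 CPM, 2.64 times (2.19 to 3.18), and Dnmt1 at 356 and 164 CPM, 2.17 times (1.91 to 2.46). The fourth was Tet2 at 0.635 (0.318 to 1.18), from 13 UMIs in G2/M-high cells, an interval that includes 1 and a value that turned to 1.29 in another random thinning. Ezh1 at 0.725 (0.487 to 1.06), Dnmt3a at 0.956 (0.764 to 1.19), Dnmt3b at 0.867 (0.654 to 1.14) and Asxl1 at 1.16 (0.879 to 1.53) had intervals that include 1, as had Tet1 and Tet3. Neutrophil markers summed to 5362 CPM in G2/M-high and 664 CPM in G2/M-low cells, all 9 higher. Without granulocyte-marker cells the ratios were 2.83 for Ezh2, 2.67 for Uhrf1 and 2.18 for Dnmt1.

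By G2/M load the 3 genes peaked short of the top. In cells with 0, 1, 2 to 3 and 4 or more G2/M UMIs, Uhrf1 stood at 69.4, 119, 233 and 145 CPM. Dnmt1 stood at 164, 238, 401 and 322 CPM and Ezh2 at 70.9, 102, 219 and 191 CPM. The last 2 bands have separate intervals for Uhrf1 (195 to 277 and 119 to 176 CPM) and overlapping ones for Dnmt1 and Ezh2.

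Since 216 cells were high for both lists, cells were also put in 4 classes: S-high only (424), both (216), G2/M-high only (378) and neither (2384). Uhrf1 stood at 236 CPM in S-high only, 311 in both, 97.0 in G2/M-high only and 44.4 CPM in neither. Set directly against each other, S-high only over G2/M-high only cells gave 2.43 (1.85 to 3.22) for Uhrf1 and 1.32 (1.11 to 1.57) for Dnmt1. Ezh2 gave 1.15 (0.909 to 1.46), so a difference of Ezh2 between these classes was not detectable at this depth. Ezh1 was at 15.6 CPM in S-high only, 15.5 in both, 36.7 in G2/M-high only and 40.5 CPM in neither. Its low level thus went with the S phase list, at 0.424 (0.202 to 0.846) in S-high only over G2/M-high only cells. Asxl1 was at 44.3 CPM in S-high only and 73.4 CPM in G2/M-high only cells, 0.603 (0.387 to 0.930), with 64.1 and 51.9 CPM in aliquot 1 and 35.8 and 81.7 CPM in aliquot 2. The aliquots disagree in direction for Asxl1.

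**Figure D3:**
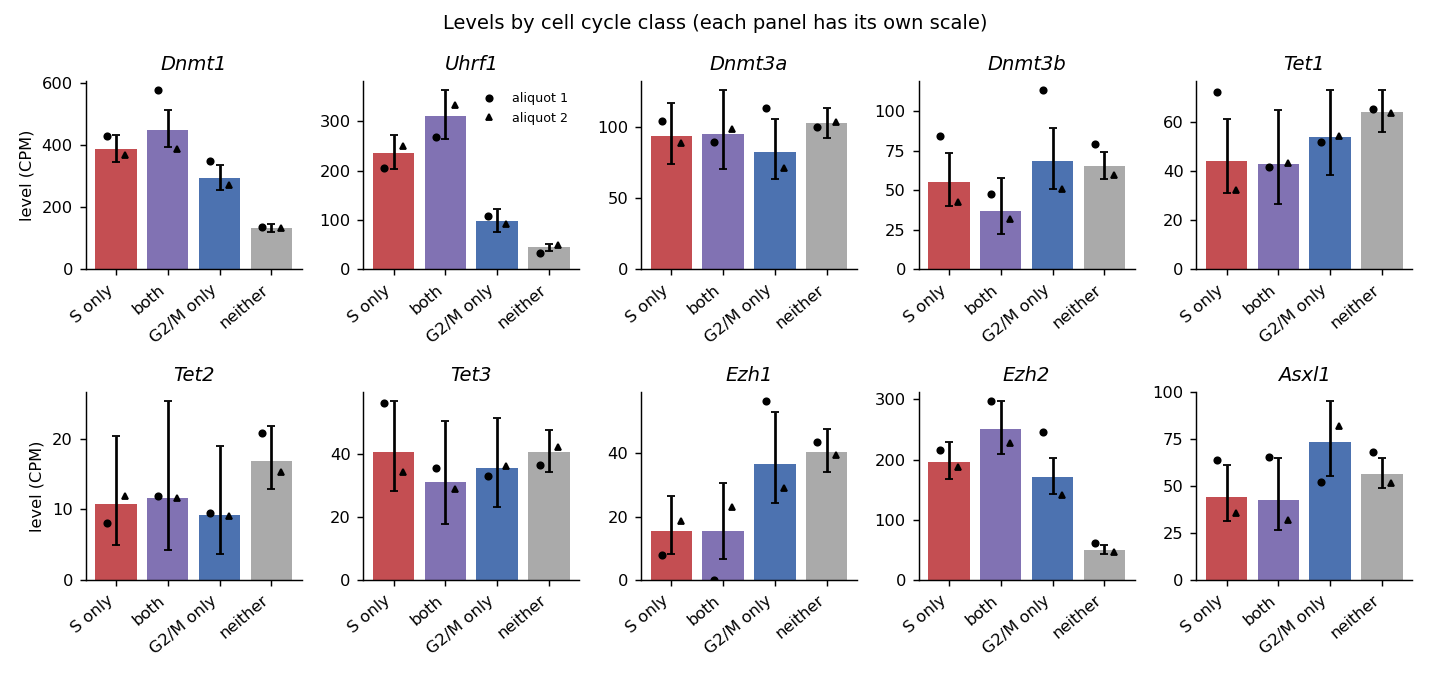
Level in CPM in cells high for the S phase list only, for both lists, for the G2/M list only and for neither; bars are both aliquots with 95% Poisson intervals, circles aliquot 1 and triangles aliquot 2, and each panel has its own scale. Uhrf1, Dnmt1 and Ezh2 are lowest in neither, and Ezh1 is at 15.6 and 15.5 CPM in the classes high for S phase against 36.7 and 40.5 CPM in the others.

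Cells with Procr transcripts, which encode the endothelial protein C receptor EPCR, a surface marker of the most primitive mouse LT-HSCs, had less Uhrf1, Ezh2 and Dnmt1 and more Ezh1. Procr was seen after thinning in 274 cells and not in 3128. Of 7269 genes measured, 12.0% were past 1.5-fold higher in Procr-detected cells and 12.4% lower. Of the 9 members measured, 1 was higher and 4 lower. Tet2 had too few UMIs for the measure, with 6 in Procr-detected cells and 76 in the others.

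Ezh2 stood at 22.8 CPM in Procr-detected cells and 112 CPM in Procr-undetected cells, 0.203 times (0.0922 to 0.387). Aliquot 1 gave 49.5 and 139.5 CPM and aliquot 2 gave 10.97 and 101 CPM, the lower of these from 3 UMIs. Uhrf1 stood at 22.8 and 110.0 CPM, 0.207 times (0.0943 to 0.396), with 16.5 and 99.4 CPM in aliquot 1 and 25.6 and 114 CPM in aliquot 2. Both genes were lower in Procr-detected cells in each aliquot. Dnmt1 stood at 109 and 229 CPM, 0.475 times (0.342 to 0.644), and its aliquots gave 0.437 and 0.493. Ezh1 stood at 60.8 CPM in Procr-detected cells and 32.0 CPM in Procr-undetected cells, 1.90 times (1.18 to 2.92), from 24 UMIs in the first set. It was higher in both aliquots, at 2.00 times (0.821 to 4.26) in aliquot 1 and 1.85 times (1.02 to 3.12) in aliquot 2. Of the Ezh1 and Ezh2 UMIs, Ezh1 thus had 72.7% in Procr-detected cells (54.5 to 86.7%) and 22.2% in the others (19.3 to 25.3%).

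Dnmt3b was past 1.5-fold lower as well, at 35.5 CPM in Procr-detected cells and 63.3 CPM in Procr-undetected cells, 0.560 times (0.303 to 0.953). With Procr detected in all UMIs it was 1.01, and it was 0.802 in another random thinning and 0.802 in aliquot 1, so that its call did not hold. With detection in all UMIs the lower genes also lay closer to 1, Ezh2 at 0.415, Uhrf1 at 0.384 and Dnmt1 at 0.606, and Ezh1 was at 1.56. In another random thinning Ezh2 was at 0.350, Uhrf1 at 0.280 and Dnmt1 at 0.625. Dnmt3a stood at 111 and 96.7 CPM, 1.15 times (0.827 to 1.57), with aliquots on either side of 1 at 0.551 and 1.45. Tet1 at 1.34 (0.891 to 1.96), Tet3 at 0.903 (0.485 to 1.55) and Asxl1 at 1.00 (0.619 to 1.55) had intervals that include 1, and Asxl1 was at 0.582 in the other thinning. S-high cells made up 8.03% of Procr-detected and 19.8% of Procr-undetected cells. Among cells neither S-high nor G2/M-high, the ratios were 0.188 (0.0383 to 0.560) for Uhrf1, 0.337 (0.122 to 0.748) for Ezh2, 0.496 (0.311 to 0.754) for Dnmt1 and 1.85 (1.13 to 2.90) for Ezh1. The direction of all 4 was the same in these cells, which are high for neither list but can hold up to 3 S phase UMIs. The part of cell cycle load in these ratios was not tested. Neutrophil markers summed to 30.4 CPM in Procr-detected and 2051 CPM in the other cells, and without granulocyte-marker cells Ezh2 gave 0.204, Uhrf1 0.208, Dnmt1 0.476 and Ezh1 1.86.

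**Figure D4:**
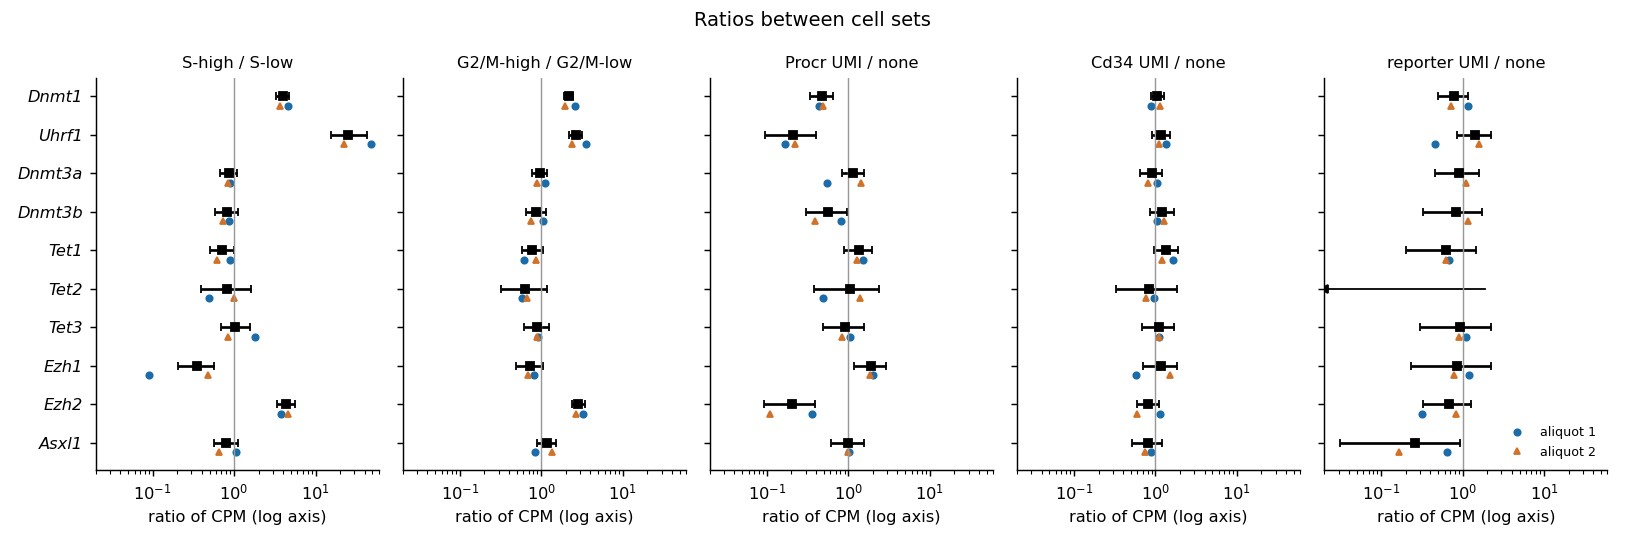
Ratio of CPM between cell sets for the 10 genes on a log axis; squares are both aliquots with 95% binomial intervals, circles aliquot 1 and triangles aliquot 2, the line marks 1, and a ratio of 0 is not drawn except for the arrow of Tet2, which had no UMI in reporter cells. Uhrf1, Dnmt1 and Ezh2 lie right of 1 by S phase and G2/M load and left of it by Procr, and Ezh1 lies left of 1 by S phase and right of it by Procr.

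The split by Cd34, a sialomucin low on LT-HSCs and present on progenitors below them, left the 9 members that could be measured within 1.5-fold. Tet2, with 7 UMIs in Cd34-detected cells, was not measured. Cd34 was seen after thinning in 365 cells and not in 3037. None of 9 members measured was past 1.5-fold in either direction, where 7.23% of 8384 genes were higher and 7.61% lower. Dnmt1 stood at 232 CPM in Cd34-detected cells and 219.5 CPM in Cd34-undetected cells, 1.05 times (0.873 to 1.26). Uhrf1 gave 1.18 (0.900 to 1.52), Ezh2 0.817 (0.599 to 1.09), Ezh1 1.16 (0.708 to 1.81) and Tet1 1.36 (0.963 to 1.88). Ezh2 stood on either side of 1 in the aliquots, at 148 CPM in Cd34-detected and 131 CPM in Cd34-undetected cells of aliquot 1, and at 58.3 and 99.2 CPM in aliquot 2, the second of these ratios past 1.5-fold at 0.588. Ezh1 was at 0.570 in aliquot 1, from 4 UMIs in Cd34-detected cells, and at 1.49 in aliquot 2, and Tet1 at 1.65 and 1.20. S-high cells made up 20.5% of Cd34-detected and 18.6% of Cd34-undetected cells. Uhrf1 was past 1.5-fold with Cd34 detected in all UMIs, at 1.75, and with another random thinning, at 1.56.

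In reporter cells the 10 genes had 89 UMIs in all, so that 4 of them could be measured. None of these 4 was past 1.5-fold, where 18.1% of 3428 genes were higher in reporter cells and 11.2% lower, 29.3% in all. Dnmt1 stood at 175 CPM in reporter cells and 222 CPM in the other cells, 0.790 times (0.504 to 1.18). Uhrf1 stood at 146 and 103 CPM, 1.42 times (0.860 to 2.21), with 1 of its 20 UMIs in aliquot 1 and 6 in 1 cell, and the aliquots gave 0.453 and 1.57. Dnmt3a stood at 87.6 and 98.0 CPM, 0.894 times (0.459 to 1.57), with all of its 12 UMIs in aliquot 2. Ezh2 stood at 73.0 and 107 CPM, 0.682 times (0.325 to 1.26). All 4 intervals include 1 and reach past 1.5-fold on at least 1 side.

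Below the minimum, Asxl1 had 2 UMIs in reporter cells, 1 in each aliquot, and stood at 14.6 CPM against 56.6 CPM in the other cells, 0.258 times (0.0311 to 0.940). Tet2 had none, and its exact interval in reporter cells reaches 26.9 CPM, above its 14.8 CPM in the other cells. Dnmt3b had 7 UMIs, Tet1 and Tet3 had 5 each and Ezh1 had 4. S-high cells made up 14.1% of reporter cells and 18.9% of the others. The sort, the mouse line and the reporter cannot be told apart in this comparison, and GFP-sorted cells without a captured reporter transcript would count among the others.

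Over all kept cells Uhrf1 was found more often with Ezh2 than without it. Uhrf1 was detected, after thinning, in 13 of 141 cells with Ezh2, 9.22% (5.001 to 15.2%), and in 3.04% of cells without it (2.47 to 3.68%). With Dnmt1 it was detected in 3.76% of cells (1.82 to 6.80%) and without Dnmt1 in 3.25% (2.66 to 3.93%), with overlapping intervals. Among cells neither S-high nor G2/M-high, Uhrf1 was in 3 of 50 cells with Ezh2, 6.0% (1.25 to 16.5%), and in 1.59% without it (1.12 to 2.18%), and these intervals overlap. Tet2 was in 0 of 154 cells with Dnmt3a, where the exact interval reaches 2.37%, and in 0.708% of the cells without it. Ezh2 was in 4.92% of cells with Ezh1 (1.03 to 13.7%) and in 4.13% without it.

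Partners of PRC2 stood on both sides of 1 in the S phase split. Of 9 partners measured in S-high against S-low cells, 4 were past 1.5-fold higher and 1 lower, beside 16.7% and 18.7% of all genes, with a median ratio of 1.44 against 0.963 over all genes. Suz12, a core subunit, stood at 170.3 CPM in S-high and 81.1 CPM in S-low cells, 2.10 times (1.69 to 2.62). The histone-binding subunits Rbbp4 and Rbbp7 gave 1.84 (1.63 to 2.08) and 1.63 (1.41 to 1.88). The Polycomb-like accessory subunits differed among themselves, Phf19 at 2.03 (1.20 to 3.51) and Phf1 at 0.250 (0.0618 to 0.752), and Aebp2 stood at 0.964 (0.780 to 1.19). By G2/M load 3 of 9 partners were higher and 1 lower, beside 11.8% and 14.6% of all genes. Suz12 gave 1.84 (1.54 to 2.19), Rbbp4 1.53 (1.38 to 1.70), Phf19 2.46 (1.57 to 3.85) and Phf1 0.271 (0.0702 to 0.750). In Procr-detected cells Suz12 was lower, at 55.7 CPM against 117 CPM in Procr-undetected cells, 0.475 times (0.296 to 0.726), the single one of 7 partners measured past 1.5-fold, where 12.4% of all genes were lower. In reporter cells 2 of 6 partners measured were past 1.5-fold higher and none lower, beside 18.1% and 11.2% of all genes. Jarid2, a PRC2 cofactor, stood at 139 CPM in reporter cells and 60.6 CPM in the others, 2.29 times (1.36 to 3.63), and the aliquots gave 1.26 and 2.59. Jarid2 passed the minimum only through its UMIs in reporter cells, where it was high. In Cd34-detected cells Jarid2 gave 1.55 (1.13 to 2.09) and Phf19 0.357 (0.0955 to 0.943). Of 8 partners measured by Cd34, 1 was past 1.5-fold higher and 1 lower, beside 7.23% and 7.61% of all genes.

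PRC1, which ubiquitinates histone H2A, had 2 of 20 genes past 1.5-fold higher in S-high cells, Pcgf6 and L3mbtl2, and 3 lower. Both shares are below those of all genes, 16.7% and 18.7%. The lower ones were the chromobox genes Cbx6 at 0.653 (0.562 to 0.757), Cbx7 at 0.321 (0.142 to 0.658) and Cbx8 at 0.356 (0.149 to 0.769). The ubiquitin ligase Rnf2 stood at 0.874 (0.679 to 1.12), and Phc2 at 0.727 and Yaf2 at 1.29 lay within 1.5-fold. In reporter cells the PRC1 gene Pcgf2 stood at 124 CPM against 60.02 CPM in the others, 2.07 times (1.19 to 3.36), and in Cd34-detected cells Rybp gave 1.53 (1.11 to 2.07). Of 7 PRC1 genes measured by the reporter, 1 was past 1.5-fold higher, beside 18.1% of all genes. Pcgf2 likewise passed the minimum only through its UMIs in reporter cells, where it was high. By Cd34 2 of 17 PRC1 genes were higher and 2 lower, beside 7.23% and 7.61% of all genes. Of 9 PR-DUB genes, the complex of Asxl1, 1 was higher, Foxk2 at 1.90 (1.29 to 2.82), and none lower, again below the 16.7% and 18.7% of all genes. Asxl2 stood at 1.20 (0.892 to 1.61), Hcfc1 at 1.22, Ogt at 0.746 and Mbd6 at 0.817. Of 3 histone H3 lysine 27 demethylase genes, 1 was past 1.5-fold lower in S-high cells, beside 18.7% of all genes. It was Kdm6b, at 16.3 CPM in S-high and 35.6 CPM in S-low cells, 0.458 times (0.267 to 0.761). By G2/M load 2 of the 3 were past 1.5-fold lower, beside 14.6% of all genes, Kdm6b among them at 0.207 (0.0921 to 0.406). Kdm6a gave 0.746 (0.499 to 1.103) and Uty 0.673 (0.374 to 1.18) in the S phase split.

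Among 17 measured genes that read or repair DNA methylation, or feed the TET enzymes, 2 were past 1.5-fold higher in S-high cells and 5 lower, where all genes gave 16.7% and 18.7%. Idh2, the mitochondrial isocitrate dehydrogenase whose product the TET enzymes need, stood at 286 CPM in S-high and 145 CPM in S-low cells, 1.97 times (1.67 to 2.32). Its cytosolic counterpart Idh1 gave 0.605 (0.425 to 0.853). Gadd45a, a stress gene linked to demethylation, gave 0.464 (0.330 to 0.644), and Cxxc5, a CpG-binding protein, 0.640 (0.516 to 0.792). Zbtb33, the methyl-CpG binding protein Kaiso, gave 0.637 (0.413 to 0.970), and Gadd45g, the fifth, 0.565 with an interval that includes 1. Mbd3, a subunit of the NuRD complex, gave 1.50 (1.22 to 1.86). In Procr-detected cells Idh2 was at 0.549 (0.398 to 0.740) and the methyl-CpG reader Mbd2 at 0.556 (0.327 to 0.890). Of 13 genes of this list measured by Procr, 2 were past 1.5-fold lower, beside 12.4% of all genes.

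Genes most like each member other than Tet2, whose 82 UMIs were below the minimum of 100, were ranked over 8 points, the 4 cycle classes in 2 aliquots, by Pearson r of log2(CPM + 10) among 5309 genes with at least 200 UMIs outside both cycle lists. The points share cells and libraries, so r describes and tests nothing. Uhrf1 was most like Lrrc59 (r = 0.994), Dctpp1 (0.986) and Rad54l (0.981), and Dnmt1 most like Topbp1 (0.989), Aars (0.989) and Prim2 (0.987). Ezh2 was most like Dnajc9 (0.991), Slc22a3 (0.991) and Cdk6 (0.986). Of these nearest genes, Prim2 and Topbp1 act in DNA replication, Rad54l in recombination repair, Dnajc9 as a histone chaperone and Cdk6 as a cell cycle kinase. Lrrc59, the gene most like Uhrf1, and Dctpp1, Aars and Slc22a3 are not placed in these roles here. Ezh1 was most like the cholesterol transporter Npc1 (0.966), the complement regulator Cd59a (0.957) and Trip12 (0.948). Dnmt3a, which varied by 0.61 on the log2 scale over the points against 2.97 for Uhrf1, had a highest r of 0.930, with Smo. The nearest genes were Nras for Dnmt3b (0.971), Klhl9 for Tet1 (0.949), Tfam for Tet3 (0.916) and Sept6 for Asxl1 (0.948).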

How the data were processed

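Single-cell mRNA was measured on the inDrops platform in 1 pool of sorted cells, run as 2 aliquots. The authors deposited raw UMI counts, whole numbers per gene and droplet barcode, with no normalization, and reporter transcripts were counted against the reporter cassette, per the labels. Build GRCm38, RSEM 1.3.0, Bowtie 1.1.1 and SAMtools 1.3.1 are named in the submitters' processing notes, without roles or settings. How reads shared by related genes were divided was not stated in the labels.

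Cells were barcodes with 500 UMIs or more and a mitochondrial share of 20% or less, with the reporter feature left out of totals (1640734 UMIs in aliquot 1 and 4027333 in aliquot 2). UMIs were summed over each cell set and scaled to CPM. Intervals are exact at 95% and cover counting error only. Poisson intervals are used for levels, conditional binomial intervals for ratios and Clopper-Pearson intervals for shares. Cell sets by S phase, G2/M, Procr and Cd34 were made after thinning each cell to 500 UMIs with a fixed seed, with the high cut at the smallest whole number reached by at most 25% of cells and the low cut at the smallest that at least 25% do not exceed, and the reporter set from all UMIs. A gene was measured where its count, seen or expected, reached 10 UMIs in whichever set was smaller. A gene with fewer expected UMIs could pass through its seen count only if it was high in the smaller set. Counts of genes past 1.5-fold higher there, among all genes too, can include genes admitted in this way. No test was made, since there is 1 pool. Doublets were not removed, and an alternative leaves out the 2% of cells with most UMIs. Granulocyte-marker cells had at least 2% of UMIs from 9 neutrophil markers or at least 1% from 8 basophil and granulocyte progenitor markers.

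The genes, lists, cuts and alternatives were chosen with earlier results of these data known. Named beside the 10 genes are, per pathway list, the 4 genes with most UMIs and those past 1.5-fold with an interval on 1 side of 1 and the same direction in both aliquots. Genes named outside this rule were chosen after their values were seen, to complete a count of 5 or fewer. A result for 1 listed gene is not reported here. Ratios and intervals were checked on simulated data. Computations used pandas 2.3.3, numpy 2.4.6 and scipy 1.17.1 in Python 3.11.15, and plots matplotlib 3.10.9. Sequences are from RefSeq (GRCm38.p6) and positions from GENCODE vM21.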

Additional observations from a re-analysis of the deposited data

Results flagged for a closer look

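Barcodes under 200 UMIs, which enter no comparison above, held 357 UMIs of the 10 genes, 642 CPM (577 to 712), against 791 CPM (768 to 814) in kept cells. That signal in data left out of the comparisons is above the limit that a count of 0 allows. Dnmt1 stood at 131 CPM (103 to 165) in these barcodes and 221 CPM in kept cells. Uhrf1 stood at 73.8 and 104 CPM, Ezh2 at 93.5 and 106 CPM, and Ezh1 at 48.6 (32.0 to 70.7) and 34.1 CPM. Whether these are small cells or free RNA was not tested.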

How the results depend on the processing

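The summed level of the 10 genes, 791 CPM, was 743 CPM when each cell weighed the same, and 755 and 879 CPM with 1 aliquot left out. The summed ratio by S phase, 2.18, was 2.40 with another random thinning and between 2.14 and 2.22 with 1 aliquot left out. Of the 1600 summed UMIs in S-high cells, 554 were of Dnmt1, 357 of Uhrf1 and 293 of Ezh2. The median ratio of the 10 genes was 0.836, so the sum does not describe each gene. By G2/M the summed ratio was 1.60, beside a median ratio of 0.921 over the 10 genes. It was 1.72 with the highest and lowest 25% of cells by unthinned share and 1.52 to 1.76 with 1 aliquot left out. By Procr the summed ratio was 0.673, beside a median ratio of 0.903 over the 9 genes measured. It was 0.853 in cells neither S-high nor G2/M-high and 0.639 to 0.687 with 1 aliquot left out. By Cd34 it was 1.04, with 1.18 when Cd34 was detected in all UMIs and 1.01 to 1.05 with 1 aliquot left out. By the reporter it was 0.818, with 0.625 to 0.884 with 1 aliquot left out.

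Of 176 alternative values of single-gene ratios past 1.5-fold, 3 lay on the other side of 1 and 163 were still past 1.5-fold. The 3 were Tet2 by G2/M at 1.29 with another thinning, Dnmt3b by Procr at 1.01 with detection in all UMIs, and Tet1 by the reporter at 1.05 with at least 2 reporter UMIs. The 176 values include the reporter ratios of Asxl1, Tet1 and Tet2, whose counts lay below the minimum of 10 UMIs. Tet2 had no UMI in reporter cells, so its reporter ratio was 0 in every alternative and could not turn. Of 374 alternative values of ratios within 1.5-fold, 60 lay on the other side of 1 and 36 past 1.5-fold. Among these, by S phase, Dnmt3b was at 1.35 with another thinning and 1.15 with the highest and lowest 25% of cells, Asxl1 at 1.25 with those 25% sets and Tet3 at 1.79 without aliquot 2, and by Cd34 Ezh2 was at 1.31 with detection in all UMIs. The cause was not tested. Uhrf1 by S phase ranged between 20.1 and 47.3, Dnmt1 between 3.55 and 4.57, Ezh2 between 3.798 and 5.68 and Ezh1 between 0.0896 and 0.485. Tet1 by S phase ranged between 0.576 and 0.880, below 1 throughout. It was past 1.5-fold lower at 0.576 with the highest and lowest 25% of cells, at 0.587 with sets at 15% of cells and at 0.620 without aliquot 1. Uhrf1 by G2/M reached 6.06 with the highest and lowest 25% of cells by unthinned share. With a minimum of 20 UMIs, genes past 1.5-fold numbered 832 against 1768 at 10 UMIs by Procr, 535 against 1244 by Cd34 and 285 against 1005 by the reporter. Leaving out cells whose barcode name occurs in both aliquots was chosen after seeing the data, and gave 0.616 for the sum by Procr. No paired analysis was possible because the aliquots are technical aliquots of 1 pool and no test was made. Depth limits Tet2, Ezh1 and every value in reporter cells.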

Other observations

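Other genes mutated in clonal hematopoiesis, 27 in the list used here, were all measured in the S phase split. In S-high over S-low cells their median ratio was 1.08, against 0.963 over all genes. Past 1.5-fold were 5 higher and 3 lower, beside 16.7% and 18.7% of all genes. The splicing factor gene Srsf2 stood at 1024 CPM in S-high cells and 514 CPM in S-low cells, 1.99 times (1.83 to 2.18), and U2af1 gave 1.70 (1.45 to 1.98). Smc3, a cohesin subunit, stood at 434 and 199.7 CPM, 2.17 times (1.89 to 2.50). Brcc3 gave 1.61 (0.935 to 2.82), while Jak2 gave 0.611 (0.450 to 0.823), Myd88 0.565 (0.353 to 0.886) and Cbl 0.508 (0.236 to 1.03). Gnas stood at 1.08 and the cohesin subunit Rad21 at 1.08 (0.946 to 1.23).

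By G2/M load 4 of the 27 were past 1.5-fold higher and 1 lower, beside 11.8% and 14.6% of all genes. In G2/M-high over G2/M-low cells Rad21 stood at 599.5 and 259 CPM, 2.31 times (2.10 to 2.55), and Smc3 gave 1.81 (1.62 to 2.03). The phosphatase gene Ppm1d gave 1.98 (1.49 to 2.64). In Procr-detected cells Cbl stood at 32.9 CPM against 14.8 CPM in Procr-undetected cells, 2.23 times (1.13 to 4.03), and Chek2 gave 0.510 (0.313 to 0.787) and Ptpn11 0.509 (0.324 to 0.764). Of 24 genes of the list measured by Procr, 1 was past 1.5-fold higher and 2 lower, beside 12.0% and 12.4% of all genes. Cbl, the gene counted as higher, passed the minimum only through its UMIs in Procr-detected cells, where it was high. In Cd34-detected cells Jak2 was at 0.504 (0.300 to 0.799) and Setd2 at 0.662 (0.447 to 0.948), and Bcor at 1.52 (1.19 to 1.93) and Nras at 1.50 (1.27 to 1.77) were higher. Of 24 measured by Cd34, 2 were thus past 1.5-fold higher and 2 lower, beside 7.23% and 7.61% of all genes.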
